A study of Mus musculus with 12 samples.

Results

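A set of 9 genes of the unfolded protein response and the integrated stress response were followed through 4 ways of preparing mouse brain myeloid cells: Atf4, Ddit3, Ppp1r15a, Trib3, Xbp1, Hspa5, Herpud1, Dnajb9 and Calr. They were chosen by symbol, 9 of the 31053 genes listed for each cell. All 12 libraries came from whole brains of male C57BL/6J mice at postnatal day 90, 1 animal per library, from which live CD45+ and CD11b+ cells were sorted and sequenced by a droplet method that reads the 3' ends of transcripts. In DNC-NONE (replicates 1, 2 and 3) the tissue was homogenized cold in a Dounce, a glass pestle and tube, with no inhibitor. In DNC-INHIB (replicates 4, 5 and 6) the same was done with actinomycin D and triptolide, which block transcription, and anisomycin, which blocks translation. In ENZ-NONE (replicates 4, 5 and 6) the tissue was digested with enzymes at body temperature without inhibitors, and in ENZ-INHIB (replicates 1, 2 and 3) it was digested with them. By the study's methods, in the inhibited groups the buffer that perfused the animals held the 2 transcription blockers only, and anisomycin joined at dissection, so no group received a translation inhibitor alone. The question asked of these genes was whether digestion, or the inhibitors, raised this response.

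The unfolded protein response is set off when misfolded proteins gather in the endoplasmic reticulum (ER), and its sensors PERK, IRE1 and ATF6 slow protein synthesis and raise the genes that fold, export or destroy ER proteins. The integrated stress response shares the PERK step: kinases phosphorylate the initiation factor eIF2, most translation slows, and the factor ATF4 is made from its mRNA. Microglia, the resident macrophages of the brain, are secretory phagocytes and carry much of the ER folding machinery at rest.

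Short stretches of the promoters of these genes hold the letters through which such factors are known to bind, and they are shown because they mark which genes of the set carry letters of the ER arm, of the ATF4 arm or of both. They come from RefSeq (GRCm38.p6, from 250 bases before to 50 after each gene's start), they run 5' to 3' along the gene's strand, and capitals mark the motif with 10 bases on either side. The motif searched for the ER stress response element was CCAAT followed, after 9 bases of any kind, by CCACG, for its second form ATTGG followed, after 1 base, by CCACG, for the core of the element bound by ATF4 with C/EBP proteins TGATGNAA, for the core of the XBP1 and ATF6 element TGACGTGG, and for the cAMP response element TGACGTCA, all on both strands. 
Hspa5, ER stress response element: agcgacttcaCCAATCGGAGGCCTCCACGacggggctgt
Calr, ER stress response element on the other strand: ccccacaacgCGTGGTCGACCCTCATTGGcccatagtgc
Herpud1, second form: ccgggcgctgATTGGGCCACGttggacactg
Herpud1, ATF4 and C/EBP core on the other strand: ccacggcgggTTGCATCAgcccgcaccc
Trib3, ATF4 and C/EBP core on the other strand: tagctcaggtTTACATCAgccgggcggg
Ppp1r15a, cAMP response element: gcctctccggTGACGTCAgcacagcgcc
These windows lie at chr2:34772015-34772053 (plus strand, Hspa5), chr8:84847065-84847103 (minus strand, Calr), chr8:94386367-94386397 and chr8:94386307-94386334 (plus strand, Herpud1), chr2:152344029-152344056 (minus strand, Trib3) and chr7:45526263-45526290 (minus strand, Ppp1r15a). Of all 32851 promoters of this length, 0.119% held the ER stress response element, 0.0365% its second form, 3.97% the ATF4 and C/EBP core and 1.79% the cAMP response element. The TGACGTGG core was in 0.676% of them and in 0 of the 9. Atf4, Ddit3, Xbp1 and Dnajb9 held none of the 5 letter patterns in this window, which says nothing of other positions.

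The 12 matrices held 28426 barcodes, of which 18826 were kept (853 to 2185 per library, with 1059783 to 3233159 UMIs, the count of captured molecules, in kept cells). Microglia-like clusters held 95.3% of them, and all 10 microglial markers were detected, at a summed 33731 to 39595 CPM in every library (CPM, a library's UMIs of a gene scaled by all its UMIs in kept cells, not by transcript length). Across libraries 236 barcode sequences occurred more than once among kept cells. Red blood cell and neuron markers summed to at most 2.34 and 8.49 CPM. Other brain markers were present in every library: astrocyte ones at 148 to 247 CPM, oligodendrocyte ones at 114 to 165 CPM and endothelial ones at 702 to 792 CPM. Monocyte markers ran from 32.7 to 377 CPM, and neutrophil markers from 1.56 to 4053 CPM with the highest values in DNC-NONE. ENZ-NONE replicate 6 stood apart from its group: Fos, an immediate-early gene, was at 1753 CPM there against 411 and 392 CPM in replicates 4 and 5 and at most 37.2 CPM in the other 9 libraries. DNC-NONE replicate 1 had the next highest Fos. The results of single genes in which ENZ-NONE replicate 6 weighed most are also given without it.

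Counts were summed over the kept cells of each library and fitted for all 12 libraries together with edgeR's quasi-likelihood test over 9882 genes, and a gene was called when its Benjamini-Hochberg adjusted p was under 0.05 and its absolute log2 fold change over 0.58. In such sums, more positive cells and more RNA per cell cannot be told apart. Of the 9 genes 8 passed the low-count filter, and Trib3 did not. Digestion without inhibitors against cold homogenization without them called 1 of the 8, Ppp1r15a, upward, where 0.617% of all genes were called in either direction and 0.425% upward. The other 5 comparisons between groups called 0 of the 8 in edgeR. Their backgrounds were 0.385% (ENZ-NONE against ENZ-INHIB), 0.799% (ENZ-NONE against DNC-INHIB), 0% (DNC-NONE against DNC-INHIB), 0.101% (ENZ-INHIB against DNC-NONE) and 0.152% (ENZ-INHIB against DNC-INHIB). At an unadjusted p under 0.05, 3, 2, 2, 0, 2 and 1 of the 8 passed in the same order of comparisons, with ENZ-NONE against DNC-NONE first. Of all genes 8.6%, 5.22%, 9.55%, 4.72%, 10.5% and 8.39% did. ENZ-NONE enters 3 of these comparisons, so they are not independent of each other.

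By level alone, the 3 libraries of one group lay all above or all below the 3 of the other in a few cases, which is common among all genes and so says little by itself. In ENZ-NONE against DNC-NONE Ppp1r15a and Ddit3 lay above (2 of 8, where 4.32% of all genes did) and Xbp1 below (8.2% of all genes). In ENZ-NONE against ENZ-INHIB Ppp1r15a and Hspa5 lay above (4.01% of all genes) and 0 of the 8 below (6.71%). In ENZ-NONE against DNC-INHIB Ppp1r15a lay above (4.79%) and Xbp1 and Herpud1 below (10.5%). Without ENZ-NONE the cases were fewer for higher levels. In DNC-NONE against DNC-INHIB 0 lay above (4.92%) and Ddit3 below (5.05%), in ENZ-INHIB against DNC-INHIB 0 lay above (7.05%) and Hspa5, Xbp1 and Herpud1 below (8.44%), and in ENZ-INHIB against DNC-NONE Ddit3 lay above (6.85%) and Hspa5 and Xbp1 below (7.8%). With the 6 inhibited libraries set against the 6 others, 0 of the 8 lay all above (0.243% of all genes) or all below (0.081%). Atf4, Dnajb9 and Calr overlapped in every one of these comparisons.

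**Figure D1:**
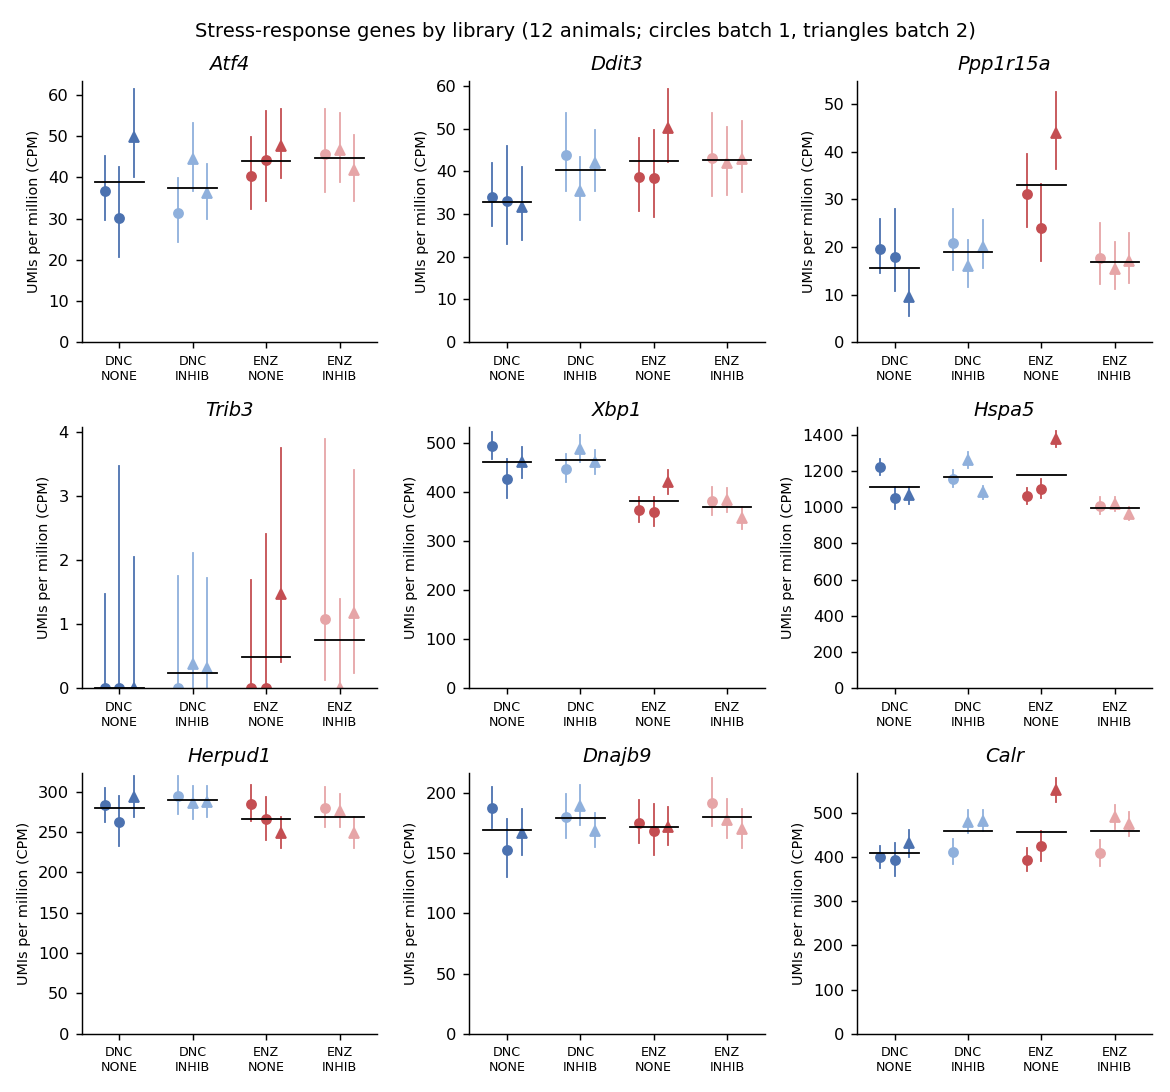
Level (CPM) of each of the 9 genes in each library, by group; points are animals (circles batch 1, triangles batch 2) with 95% Poisson intervals that cover counting error only, and bars are group means. The 3 ENZ-NONE libraries sit above the other 9 for Ppp1r15a (24.1 to 44.0 against 9.44 to 20.9 CPM), and the 6 digested libraries sit below the 6 homogenized ones for Xbp1 (345 to 420 against 426 to 494 CPM).

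Ppp1r15a encodes GADD34, the inducible partner of protein phosphatase 1 that removes the phosphate from eIF2 and so lets translation resume. The gene lies on chromosome 7 at 45522916-45526268 (GRCm38, minus strand) and overlaps Tulp2 on the opposite strand. It was at 31.2, 24.1 and 44.0 CPM in ENZ-NONE replicates 4, 5 and 6, resting on 68, 37 and 120 UMIs. In ENZ-INHIB it was at 17.8, 15.5 and 17.2 CPM, in DNC-INHIB at 20.9, 16.0 and 20.1 CPM, and in DNC-NONE at 19.6, 17.9 and 9.44 CPM. Every ENZ-NONE library was thus above every other library, the lowest of them by a narrow margin, an arrangement that 0.729% of all genes tested had. The group means were 33.1 ± 10.1 CPM in ENZ-NONE and 15.7 ± 5.45 CPM in DNC-NONE (SD, n = 3 each). 

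Against DNC-NONE, Ppp1r15a was 2.24-fold higher in ENZ-NONE (log2 fold change 1.16, SE 0.25, edgeR adjusted p = 0.0342). Against ENZ-INHIB the log2 fold change was 1.07 (SE 0.23, edgeR adjusted p = 0.0533), and against DNC-INHIB it was 0.89 (SE 0.22, edgeR adjusted p = 0.0813), both just short of the threshold. With a robust estimate of the spread, an option of the same test that was added after the data were seen, all 3 passed (edgeR adjusted p = 0.0198, 0.0318 and 0.0489). The call against DNC-NONE was lost when any 1 of 8 libraries was left out of the fit: DNC-NONE 2 or 3, DNC-INHIB 4 or 6, ENZ-NONE 4 or 6, or ENZ-INHIB 2 or 3. In 6 of these cases the log2 fold change stayed at 1.16 to 1.24, with edgeR adjusted p of 0.052 to 0.0889. In the other two it fell: without ENZ-NONE replicate 6 it was 0.85 (edgeR adjusted p = 0.147), and without DNC-NONE replicate 3, the lowest library, it was 0.90 (edgeR adjusted p = 0.181). Summing microglia-like cells alone, where neutrophils are left out, gave 1.20 (edgeR adjusted p = 0.0292). The term for a different effect of the inhibitors under the 2 methods was 1.33 on the log2 scale (SE 0.35), which did not pass (edgeR adjusted p = 0.519, with 0.172% of all genes called on this term). It is the uninhibited minus inhibited difference after digestion less that after homogenization, and it was 1.03 without ENZ-NONE replicate 6.

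In both batches, as the labels name them, ENZ-NONE had the highest mean level of Ppp1r15a, and the order of the other groups differed. In batch 1 the 2 ENZ-NONE libraries averaged 27.7 CPM, and the other groups 18.8 (DNC-NONE, 2 libraries), 20.9 (DNC-INHIB, 1) and 17.8 CPM (ENZ-INHIB, 1). In batch 2 the single ENZ-NONE library had 44.0 CPM, against 9.44 (DNC-NONE, 1 library), 18.0 (DNC-INHIB, 2) and 16.3 CPM (ENZ-INHIB, 2).

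**Figure D2:**
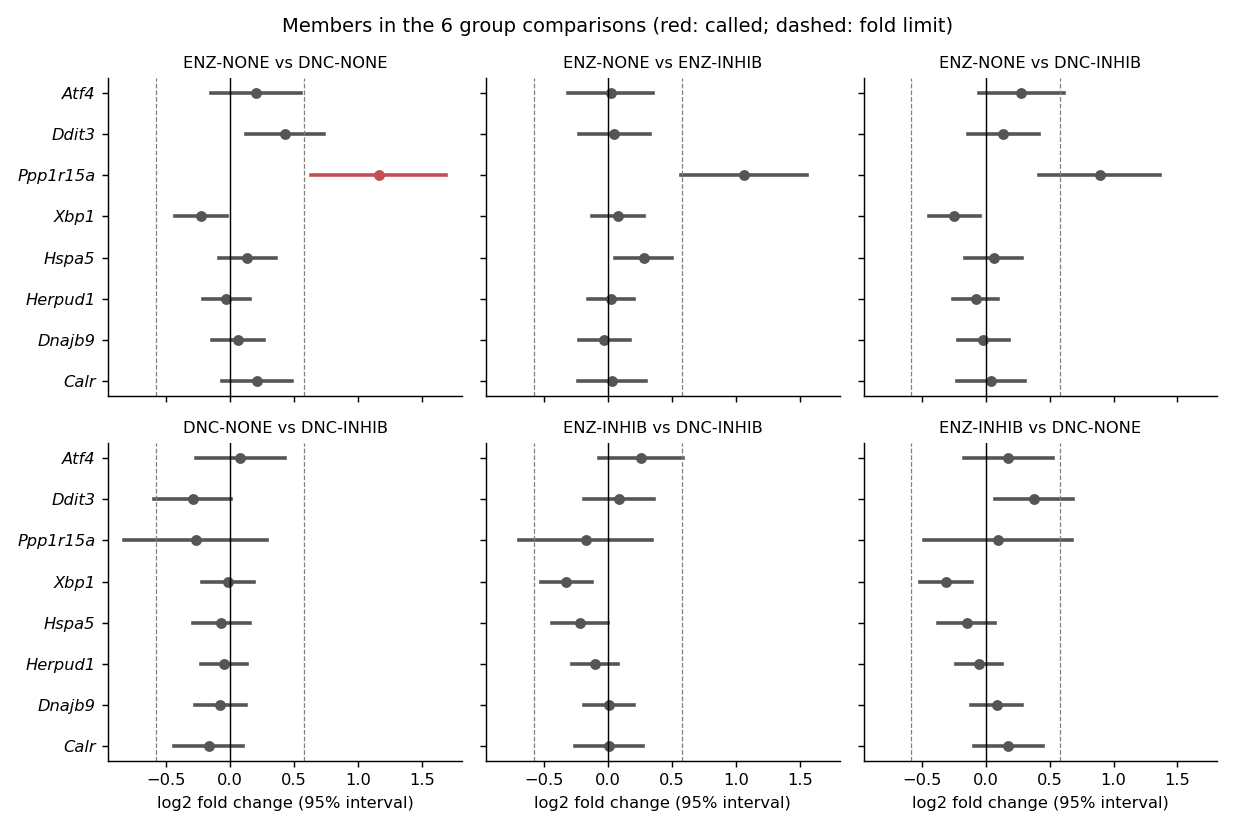
Log2 fold change with its 95% interval for the 8 tested genes in each of the 6 comparisons between groups; red marks the value called, grey the others, and dashed lines the fold limit of 0.58 either way. Only Ppp1r15a against DNC-NONE is red (1.16), and in the 3 comparisons without ENZ-NONE its intervals all span 0.

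Counted by cells, the Ppp1r15a transcript was rare everywhere. After each cell was thinned at random to 1000 UMIs, 2.48%, 2.59% and 3.95% of the cells of ENZ-NONE replicates 4, 5 and 6 held at least 1 of its UMIs, against 1.00% to 2.14% in the other 9 libraries. The difference of 1.36 percentage points between the means (3.01% and 1.65%) gave p = 0.00909 in an exact permutation test over the libraries (two-sided, 220 splits), which is the smallest p this design can give. Without ENZ-NONE replicate 6 the difference was 0.89 points (exact permutation p = 0.0364), and with cells thinned to 2000 UMIs, which left 1250 cells, it was 2.73 points and no longer passed (exact permutation p = 0.127). Without thinning the means were 4.33% and 2.35%. Between inhibited and uninhibited libraries, compared within each method, the difference was -0.59 points (exact permutation p = 0.205), and between digested and homogenized ones, compared within inhibitor, it was 0.52 points (exact permutation p = 0.28). These 3 comparisons were run for each of the 9 genes, 27 tests in all, and the p-values are unadjusted. Of the 9, 1 had p under 0.05 in the first comparison, 1 in the second and 3 in the third, beside 6.2%, 6% and 9.73% of all genes tested. How much of these shares free RNA in droplets gives was not estimated, as no cell class here could serve as a negative for the 9 transcripts.

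The cells that held Ppp1r15a in ENZ-NONE were more often those with immediate-early transcripts. After thinning, 1390 ENZ-NONE cells held a UMI of Fos or of Dusp1, a phosphatase gene induced with it, and 3046 held neither. Ppp1r15a was found in 5.61% of the former (95% exact interval 4.46% to 6.95%) and 1.94% of the latter (1.48% to 2.49%). The same order was seen in each animal: 5.84% and 1.66% in replicate 4, 5.22% and 1.76% in replicate 5, and 5.65% and 2.46% in replicate 6. Among cells with neither transcript, the share in these 3 libraries overlapped that of the other 9, which ran from 1.01% to 2.15%. The number of cells with Fos or Dusp1 was 32 in ENZ-INHIB, 37 in DNC-INHIB and 85 in DNC-NONE, too few for a share of Ppp1r15a (1, 0 and 2 positive cells). For the other members the intervals of these shares overlapped: Ddit3 was in 4.53% and 3.58%, Atf4 in 4.68% and 4.33%, Hspa5 in 65.3% and 64.6%, Xbp1 in 30.7% and 30.7%, and Calr in 34.4% and 34.8% of cells with and without those transcripts. These shares describe cells of the same 3 animals, and no test was run on them.

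**Figure D3:**
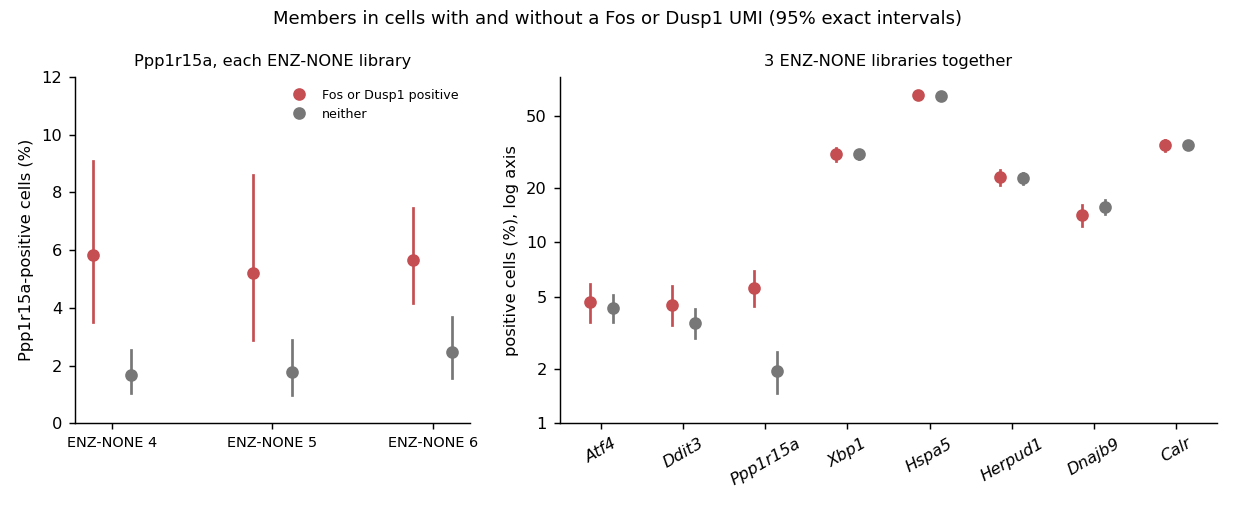
Share of cells with at least 1 UMI of a gene after thinning to 1000 UMIs, with 95% exact intervals, among cells with a Fos or Dusp1 UMI (red) and without (grey). On the left, Ppp1r15a in each ENZ-NONE library (5.22% to 5.84% against 1.66% to 2.46%); on the right, the 8 tested genes over the 3 libraries together on a log axis, where the other 7 pairs of intervals overlap.

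Ddit3 encodes CHOP, a factor downstream of ATF4 that raises Ppp1r15a and, under lasting stress, genes of cell death. It lies on chromosome 10 at 127290774-127296288 (plus strand) and overlaps Mars and Gm4189 on the opposite strand. Another annotated gene, also named Ddit3, overlaps it on the same strand. How reads shared with that entry were counted is not given in the sources used here. Its levels were 34.0, 33.0 and 31.6 CPM in DNC-NONE, 43.8, 35.3 and 42.1 CPM in DNC-INHIB, 38.6, 38.4 and 50.2 CPM in ENZ-NONE and 43.1, 41.8 and 42.9 CPM in ENZ-INHIB. The 3 DNC-NONE libraries were the lowest of the 12. The share of all genes with this order was not computed, but 0.901% had the 3 ENZ-NONE libraries lowest. ENZ-NONE exceeded DNC-NONE by 0.43 on the log2 scale (SE 0.15, edgeR adjusted p = 0.334) and ENZ-INHIB exceeded it by 0.38 (SE 0.14, edgeR adjusted p = 0.35), and neither was called. Within digestion, inhibited minus uninhibited libraries differed by -0.05 (95% interval -0.33 to 0.23). Without ENZ-NONE replicate 6 the value against DNC-NONE was 0.25 (edgeR adjusted p = 0.692). 

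The share of Ddit3-positive cells after thinning was 2.65% to 3.52% in DNC-NONE, 3.48% to 4.08% in DNC-INHIB, 3.49% to 4.23% in ENZ-NONE and 4.04% to 4.42% in ENZ-INHIB. It was 0.56 points higher with inhibitors (exact permutation p = 0.03) and 0.59 points higher after digestion (exact permutation p = 0.025). Both changed when the limit on cells and the thinning were lowered together: with all barcodes of at least 500 UMIs thinned to 500, the first became -0.16 points (exact permutation p = 0.54) and the second 0.42 points (exact permutation p = 0.105). With cells thinned to 2000 UMIs, which left 1250 cells, they were 3.82 points (exact permutation p = 0.005) and 3.55 points (exact permutation p = 0.01). Of 6 alternatives with all libraries, 2 and 3 had p under 0.05. Leaving out 1 library kept p under 0.05 in 5 of 12 cases for each. ENZ-NONE did not stand out from the other 9 libraries in this share (0.15 points, exact permutation p = 0.7).

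Atf4, whose translation rather than its mRNA is the usual switch of the integrated stress response, lies on chromosome 15 at 80255184-80257541 (plus strand). It was at 36.8, 30.2 and 49.95 CPM in DNC-NONE, 31.4, 44.5 and 36.2 CPM in DNC-INHIB, 40.4, 44.3 and 47.6 CPM in ENZ-NONE and 45.8, 46.7 and 41.7 CPM in ENZ-INHIB. The groups overlapped in every comparison. Its log2 fold changes ran from 0.02 (ENZ-NONE against ENZ-INHIB, 95% interval -0.31 to 0.35) to 0.28 (ENZ-NONE against DNC-INHIB, -0.05 to 0.61). ATF4 protein was not measured.

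Trib3, a pseudokinase gene induced by ATF4 and CHOP under strong stress (chromosome 2, 152337422-152344032, minus strand), was close to absent, with 11 UMIs in all 18826 cells. ENZ-NONE held 4 of them, all in replicate 6, ENZ-INHIB 5, DNC-INHIB 2 and DNC-NONE 0. At 0 UMIs, the 3 counts that a zero allows correspond to up to 1.13 to 2.83 CPM in a library, so a difference between preparations was not detectable at this depth.

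Xbp1 was lower, not higher, in digested tissue by level, though no comparison was called. Its mRNA is cut by IRE1 to make the active factor. The gene lies on chromosome 11 at 5520659-5525893 (plus strand), and counts at 3' ends do not tell the cut from the uncut form. It was at 494, 426 and 460 CPM in DNC-NONE and 447, 488 and 460 CPM in DNC-INHIB, against 363, 359 and 420 CPM in ENZ-NONE and 381, 383 and 345 CPM in ENZ-INHIB. All 6 digested libraries were below all 6 homogenized ones, which 1.21% of genes tested also were. The log2 fold changes of digestion were -0.23 (SE 0.10) without inhibitors and -0.32 (SE 0.10) with them, and neither was called (edgeR adjusted p = 0.506 and 0.281, and both sizes are under the fold limit). Inhibited minus uninhibited libraries differed by 0.01 within homogenization (95% interval -0.19 to 0.22) and by -0.08 within digestion (-0.28 to 0.12).

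In cells, Xbp1 was found after thinning in 34.2% to 37.3% of those of each homogenized library and 28.0% to 33.6% of those of each digested one. The difference was -5.42 points (exact permutation p = 0.005, the smallest that its 400 arrangements allow), and it stayed at p = 0.01 with any 1 library left out, the values then running from -6.24 to -4.84 points. Permuting within batch gave p = 0.0139 by the same exact test. Without thinning the difference was -3.75 points (exact permutation p = 0.065). Digested libraries had median depths of 1291 to 1572 UMIs per cell and homogenized ones 1153 to 1408.

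**Figure D4:**
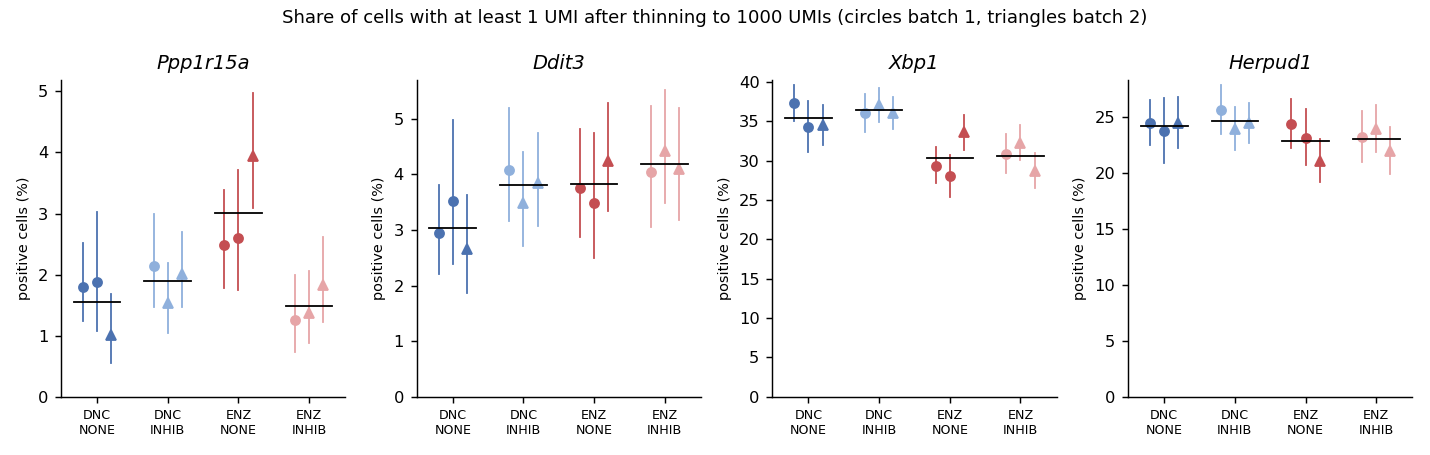
Percent of cells with at least 1 UMI after thinning to 1000 UMIs for the 4 genes with an exact permutation p under 0.05 in 1 of the 3 comparisons; points are libraries (circles batch 1, triangles batch 2) with 95% exact intervals, and bars are group means. Ppp1r15a is highest in the 3 ENZ-NONE libraries, Ddit3 is lowest on average in DNC-NONE (3.03%), and Xbp1 is lower in all 6 digested libraries.

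Hspa5 encodes BiP, the ER chaperone whose release from the sensors starts the unfolded protein response (chromosome 2, 34771970-34777547, plus strand). It was at 1220, 1048 and 1065 CPM in DNC-NONE, 1157, 1260 and 1083 CPM in DNC-INHIB, 1061, 1103 and 1376 CPM in ENZ-NONE and 1008, 1020 and 965 CPM in ENZ-INHIB. The 3 ENZ-INHIB libraries were the lowest of the 12, and ENZ-NONE replicate 6 was the highest. The share of all genes with ENZ-INHIB lowest was not computed, but 0.901% had the 3 ENZ-NONE libraries lowest. ENZ-NONE exceeded ENZ-INHIB by 0.28 on the log2 scale (SE 0.11, edgeR adjusted p = 0.819), and the value was 0.13 without replicate 6. Against DNC-NONE the difference was 0.13 (95% interval -0.09 to 0.36), so a doubling of this chaperone lay outside the interval, and without replicate 6 it was -0.02. Hspa5 was found in 56.1% to 69.8% of thinned cells, with 1.92 to 2.67 UMIs per positive cell.

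Herpud1, Dnajb9 and Calr had the remaining small differences, and none was called. Herpud1 is a scaffold of ER-associated degradation (chromosome 8, 94386438-94395377, plus strand, overlapping Gm15890 on the opposite strand). It ran from 249 to 295 CPM over the 12 libraries, and its 6 log2 fold changes lay between -0.10 and 0.02. Its share of positive cells after thinning was 1.502 points lower in digested libraries (exact permutation p = 0.02), but without thinning it was 0.70 points higher (exact permutation p = 0.5). Dnajb9 encodes ERdj4, a co-chaperone that helps remove misfolded proteins (chromosome 12, 44205559-44210326, minus strand, overlapping Mir5627 on the opposite strand). It ran from 153 to 192 CPM with log2 fold changes of -0.08 to 0.09. Calr encodes calreticulin, a calcium-binding chaperone of glycoproteins (chromosome 8, 84841850-84846934, minus strand). It ran from 393 to 552 CPM, its highest value again in ENZ-NONE replicate 6, and its largest log2 fold change, 0.21 against DNC-NONE (95% interval -0.06 to 0.48), was 0.02 without that library.

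In homogenized tissue the inhibitors alone gave no call among these genes. DNC-NONE against DNC-INHIB gave log2 fold changes of -0.29 (Ddit3) to 0.08 (Atf4), with a median of -0.07 over the 8 genes and 0.00 over all genes tested. At an unadjusted p under 0.05 in edgeR 0 of the 8 passed, beside 466 of all genes, and DESeq2 called 0 of the 8. Digestion in the presence of inhibitors (ENZ-INHIB against DNC-INHIB) gave -0.32 (Xbp1) to 0.26 (Atf4), with a median of -0.05. For Ppp1r15a the intervals were -0.83 to 0.29 in the former comparison and -0.69 to 0.35 in the latter, so a 2-fold rise with the inhibitors or with digestion under them lay outside both. The transcription blockers were present in each inhibited group, and they limit any rise in mRNA. These comparisons therefore cannot show what anisomycin alone, or digestion without such a block, does to Ppp1r15a.

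The number of these genes found in a cell overlapped between most groups. Only the ENZ-INHIB libraries (means of 1.68 to 1.79) lay all below those of DNC-INHIB (1.81 to 1.92). How common such an order is in other sets of genes was not computed. A thinned cell held UMIs of 1.78 ± 0.05 of the 9 genes on average in DNC-NONE, 1.85 ± 0.06 in DNC-INHIB, 1.78 ± 0.13 in ENZ-NONE and 1.74 ± 0.05 in ENZ-INHIB (SD, n = 3 libraries). Cells with 3 or more of them made up 24.4%, 26.9%, 24.2% and 22.8% in the same order, with SDs of 1.96, 1.51, 4.83 and 1.70 points. ENZ-NONE spread most, since replicate 6 had 29.6% of such cells and replicate 4 had 20.4%. Summed over the 9 genes, the level without Ppp1r15a was 2543 ± 282 CPM in ENZ-NONE and 2500 ± 155 CPM in DNC-NONE. It was 2637 ± 127 CPM in DNC-INHIB and 2362 ± 73.4 CPM in ENZ-INHIB. The libraries of these last groups did not overlap (2560 to 2783 against 2290 to 2437 CPM). Hspa5 was the largest part of each sum, so the sum mostly follows that gene.

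Levels by cell class are given as a description. Clusters had been built without the 9 genes, and the levels that follow pool all 12 libraries, with 95% Poisson intervals for counting error only. Ppp1r15a was at 21.4 CPM (19.6 to 23.3) in the 17946 microglia-like cells and 32.9 CPM (19.1 to 52.6) in the 309 border macrophage-like cells, and these intervals overlap. Within border macrophage-like cells of ENZ-NONE it was at 83.6 CPM (38.2 to 159), on 9 UMIs in 64 cells, and in those of the other 3 groups it was at 6.57 to 36.7 CPM on 1 to 4 UMIs each, too few to compare. Hspa5 was at 1130 CPM (1117 to 1143) in microglia-like cells, 847 CPM (769 to 930) in border macrophage-like cells and 764 CPM (661 to 879) in an unnamed cluster of 132 cells led by Ngp, a neutrophil granule gene. Herpud1 was at 279 CPM (273 to 286) in microglia-like cells, 178 CPM (143 to 218) in border macrophage-like cells, 89.7 CPM (56.8 to 135) in that unnamed cluster and 350 CPM (301 to 406) in 347 interferon-responsive-like cells. Dnajb9 followed with 180 CPM (174 to 185), 96.6 CPM (71.7 to 127) and 74.1 CPM (44.6 to 116) in the first 3 of these.

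In lists of other genes of the same pathways, Atf3 alone was called. Among the 17 sensors and eIF2 pathway components all were tested and 0 were called in any comparison, with a median log2 fold change of -0.05 in ENZ-NONE against DNC-NONE, where the median of all genes was 0.00. Eif2ak3, which encodes PERK, was at -0.61 there (SE 0.23, edgeR adjusted p = 0.432), and Ppp1r15b, the constitutive counterpart of Ppp1r15a, was at -0.31 against DNC-INHIB (SE 0.13, edgeR adjusted p = 0.445). Of 33 target genes of ATF4 and CHOP 25 were tested, and 1 was called higher in each of the 3 comparisons of ENZ-NONE: Atf3, a stress-induced factor that is also an immediate-early gene. Atf3 was at 53.3, 51.5 and 206 CPM in ENZ-NONE and 4.002 to 15.5 CPM in the other 9 libraries, an order that 0.729% of all genes tested had. Its log2 fold change was 3.53 against DNC-NONE (SE 0.55, edgeR adjusted p = 0.00212), or 2.45 without ENZ-NONE replicate 6 (edgeR adjusted p = 3.70e-05). The list's median was 0.14 there, and 0.01 against ENZ-INHIB. Ddit4, a gene of this list that represses growth signalling, lay in the other direction at -1.51 against DNC-INHIB (SE 0.42, edgeR adjusted p = 0.123), which was not called. Asns and Chac1, which ATF4 induces in amino acid shortage, were too rare to test at 54 and 4 UMIs in all, and were named for that.

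The 23 ER folding enzymes and chaperones were all tested and 0 were called in any comparison, with medians of 0.06 against DNC-NONE and 0.17 against ENZ-INHIB for ENZ-NONE. At an unadjusted edgeR p under 0.05, 7 of the 23 passed in ENZ-NONE against ENZ-INHIB, beside 5.22% of all genes. There 20 log2 fold changes were positive and 3 negative, beside 4874 and 5008 of all genes. In ENZ-INHIB against DNC-INHIB 4 passed, beside 8.39%, with 6 positive and 17 negative (5026 and 4855 of all genes). In ENZ-NONE against DNC-NONE 1 passed, beside 8.6%, with 20 positive and 3 negative (4985 and 4897 of all genes). No test of the list as a whole was run. These counts are not given without ENZ-NONE replicate 6, so how far they rest on that library is not known. P4hb, a protein disulfide isomerase, was at 97.8 to 126 CPM in the 6 digested libraries and 75.6 to 95.6 CPM in the 6 homogenized ones. Such an order, with all 6 digested libraries above, was found in 0.283% of all genes tested. Its log2 fold change reached 0.45 in ENZ-NONE against DNC-INHIB (SE 0.11, edgeR adjusted p = 0.082). Pdia6, another such enzyme, and Sdf2l1, a partner of BiP, were at 0.24 and 0.35 in ENZ-NONE against ENZ-INHIB (edgeR adjusted p = 0.838 and 0.785). Of 25 genes of ER-associated degradation and translocation 24 were tested and 0 were called. Their medians were 0.04 and 0.05 in ENZ-NONE against DNC-NONE and against ENZ-INHIB, where 0 and 4 passed at an unadjusted edgeR p under 0.05. Sec61g, a subunit of the ER import channel, was at 0.29 in ENZ-NONE against ENZ-INHIB (SE 0.08, edgeR adjusted p = 0.296). For scale, all 5 activation genes (Fos, Jun, Dusp1, Egr1 and Hspa1a) were called higher in each ENZ-NONE comparison, with medians of 5.71, 6.55 and 6.14 on the log2 scale. Of all genes 0.617%, 0.385% and 0.799% were called in these comparisons. The study had named Fos, Jun, Dusp1, Hspa1a and Egr1 as raised in ENZ-NONE from these same animals. It had also described Atf3 as strongly increased by activation outside the body. The calls of these genes are therefore not independent of those findings. Whether Ppp1r15a and Atf3 moved with the 5 activation genes for a common reason was not tested.

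**Figure D5:**
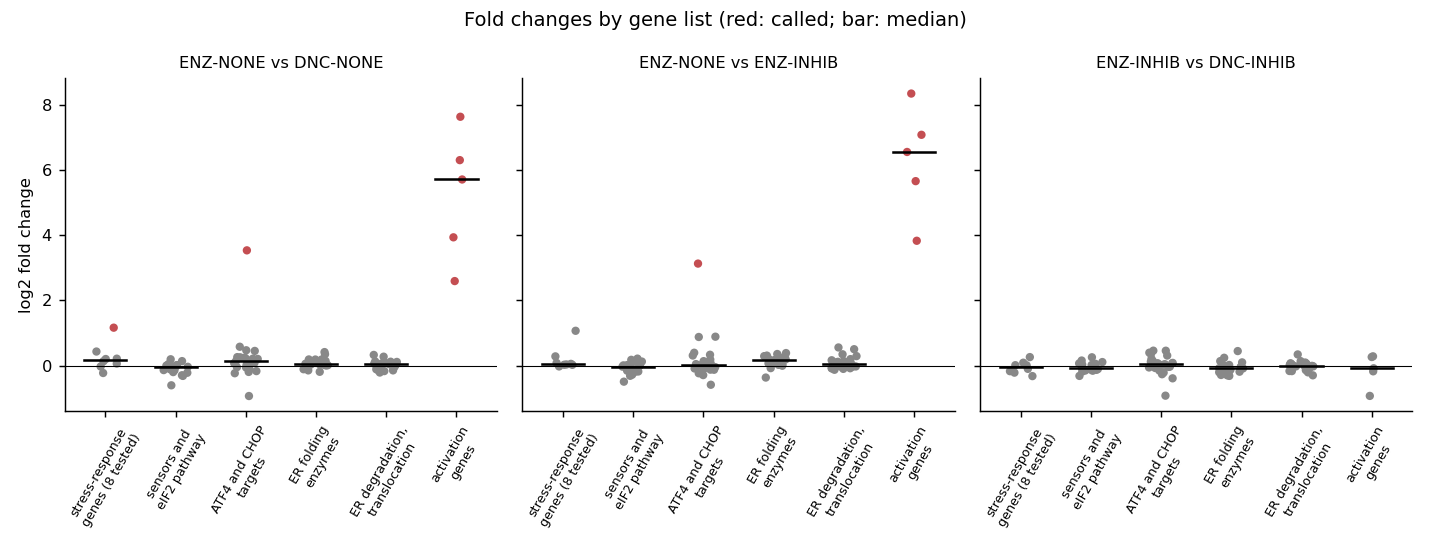
Log2 fold change of every tested gene of each list (points, red where called, bars medians) in 3 comparisons. The medians of the 5 stress-pathway lists lie between -0.09 and 0.17, single red points are Ppp1r15a (1.16) and Atf3 (3.53 and 3.13), and the 5 activation genes lie at 2.59 or more in both ENZ-NONE comparisons and are not called in ENZ-INHIB against DNC-INHIB.

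Among the 9882 genes, those whose log2 CPM most resembled each member over the 12 libraries are given as a description, ranked by Pearson's r with no test. For Ppp1r15a they were Dclre1c (0.88), Dusp1 (0.88) and Ccdc126 (0.88), and the 3 ENZ-NONE libraries lie apart from the rest in this relation. For Hspa5 they included Creld2 (0.92) and Pdia6 (0.92), for Xbp1 they were 9430060I03Rik (0.94), Ppt1 (0.93) and Rab43 (0.92), and for Calr they were Srgn (0.92), Tomm22 (0.92) and Psme1 (0.92). For Ddit3 the highest was Them4 (0.88), for Atf4 Scarb2 (0.91), for Herpud1 Cnot10 (0.93) and for Dnajb9 Aftph (0.91).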

How the data were processed

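The values the authors deposited are whole UMI counts per gene and barcode, 1 matrix per animal, made with Cell Ranger 3.0.0 on mm10 (GRCm38) with the barcodes it called, before the study's own filters and without normalization. Limits of 500 detected genes, 1000 UMIs (both minima) and 10% mitochondrial UMIs (a maximum) chose the cells. A rule on markers of other brain cells removed 4 of them (0.0212%), a share too low for it to have found most doublets. Leiden clusters (resolution 1, scanpy 1.11.5) were named from marker lists, and the 9 genes and the stress lists were left out of the clustering.

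Sums per library were tested with edgeR 4.0.16 (TMM, filterByExpr, group means, no covariate, 12 libraries), which fitted all 9882 genes, and with DESeq2 1.42.0 as an alternative. Simulated 2-fold changes were recovered in 68% to 77% of cases per comparison. Shares were compared by exact permutation of library labels. Poisson and exact binomial intervals cover counting error only, and those of log2 fold changes also hold the spread between libraries. Replicates are separate animals, and replicate pairs differed by more than sampling noise (chi-square of 1.55 to 6.06 per degree of freedom).

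The 9 genes and all lists were chosen with earlier results of these data known. Genes named from the other lists were those called in any comparison between groups, filled up to 4 per list by smallest p. A few of these are described here, and Tulp2, Mars, Gm4189, Gm15890 and Mir5627 are named only as overlapping annotations (GENCODE M21, to which 99.9% of identifiers were matched). Whether antisense reads were counted is not given in the sources used here. No protein sequences were used. A gene among those most like Hspa5 is not reported here.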

Additional observations from a re-analysis of the deposited data

Results flagged for a closer look

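In 3 of the activation genes reported for scale, the effect of the inhibitors differed between digestion and homogenization by the interaction test itself (the excess of uninhibited over inhibited libraries after digestion less that after homogenization): Hspa1a by 8.56 on the log2 scale (edgeR adjusted p = 3.25e-05), Dusp1 by 6.02 and Jun by 2.67 (edgeR adjusted p = 0.0287 for both). The study had already named these 3 genes as raised in ENZ-NONE from the same animals. None of the 8 stress-response genes tested passed the interaction test, beside 0.172% of all genes. The largest of their terms was that of Ppp1r15a, 1.33 (edgeR adjusted p = 0.519). Groups of 3 libraries are too small for a test of single outlying samples, so the height of ENZ-NONE replicate 6 was described and not tested.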

How the results depend on the processing

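Over all alternatives, Ppp1r15a was the only one of the 8 genes ever called. The other 7 were called in 0 of 1141 alternative results, where each gene in each comparison under each setting counts as 1. Against DNC-NONE the count of called genes stayed at 1 in 9 of 11 alternatives and fell to 0 with library sums thinned to the smallest and with only the 2 groups compared, where the adjusted p reached 0.199. Of these 9, the one with no fold limit reused the main fit, so it could not lose the call. The robust spread, also among the 9, was added after the data were seen. Against ENZ-INHIB it rose from 0 to 1 with DESeq2, with the robust spread, with no low-count filter and without the 2% of cells with most UMIs. Against DNC-INHIB it rose from 0 to 1 with the robust spread, with no low-count filter and with the replicate block. The interaction rose from 0 to 1 with no low-count filter. Leaving out single libraries moved each of the 3 ENZ-NONE counts between 0 and 1, with log2 fold changes of 0.85 to 1.46 against DNC-NONE, 0.76 to 1.23 against ENZ-INHIB and 0.58 to 1.05 against DNC-INHIB.

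Replicate numbers are shared only by ENZ-NONE with DNC-INHIB and by ENZ-INHIB with DNC-NONE, and deviations of same-numbered libraries correlated at -0.08 to 0.15, so the numbers do not pair the samples. With the number as a block, 1 of the 8 genes was called in the first of these comparisons (Ppp1r15a, edgeR adjusted p = 0.031) and 0 in the second, where the count over all genes rose from 10 to 77.

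For positive shares, the number of genes with p under 0.05 fell from 3 to 1 for digestion against homogenization when thinning to 2000 UMIs and when permuting within batch, and ran from 1 to 3 with single libraries left out. Without thinning the 3 were Ddit3, Atf4 and Dnajb9, all higher after digestion (1.36, 1.38 and 1.92 points, exact permutation p = 0.01, 0.02 and 0.045). For the inhibitors the number fell from 1 to 0 with microglia-like clusters alone and with at least 2 UMIs per positive cell, and ran from 0 to 1. With no thinning and with 500 UMIs that 1 gene was Dnajb9 and not Ddit3 (2.23 and 0.75 points, exact permutation p = 0.025 and 0.015). For ENZ-NONE against the other 9 the number ran from 1 to 2. With thinning to 2000 UMIs that 1 gene was Hspa5 (8.54 points, exact permutation p = 0.00909) and not Ppp1r15a. Reversals were Ddit3 with inhibitors at -0.16 points (500 UMIs), Ddit3 with digestion at -0.11 points (at least 2 UMIs) and Herpud1 with digestion at 0.70 (no thinning) and 0.33 points (2000 UMIs). The cause was not tested. In all fits and comparisons the median log2 fold change of all genes was at most 0.01 in size. Each fit was scaled to bring most genes near no change, so this value cannot test the scaling. Ppp1r15a rests on 17 to 120 UMIs per library, and this depth limits what can be said of small differences.

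Counts over all genes moved more. With no low-count filter they were 206, 141 and 212 in the 3 ENZ-NONE comparisons, against 61, 38 and 79, and 72 against 17 for the interaction. With only the 2 groups compared the first was 38, and with thinned sums the third was 48. ENZ-INHIB against DNC-INHIB ran from 2 (thinned sums) to 97 (no filter) around 15, ENZ-INHIB against DNC-NONE from 0 (thinned sums) to 213 (no filter) around 10, and DNC-NONE against DNC-INHIB from 0 to 86 (no filter). The robust spread gave 6 for the interaction.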
